A study of Rattus norvegicus with 6 samples.

Results

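The 9 genes described here encode proteins of the junctions between endothelial cells: Cdh5, Pecam1, Esam, Cldn5, F11r, Jam2, Jam3, Tjp1 and Ocln. They were chosen by name, and each was matched to 1 probeset of the array, among 15037 named genes in all. All 9 passed the filter on dim genes, which left 11577 genes for testing. Gene expression was measured on Affymetrix arrays in cells from the abdominal skin of Sprague-Dawley rats, 3 of them Il33 knockouts (animals 28, 27 and 52) and 3 wildtype (animals 34, 45 and 37). Each genotype held 2 females and 1 male (knockout 52 and wildtype 37), no treatment is labelled, and no age is labelled. The cells had been freed with collagenase and sorted with magnetic beads, by removing CD45-positive and then Lyve-1-positive cells and keeping CD31-positive ones. CD31 is the product of Pecam1, so that gene was also the sorting marker.

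Vascular endothelial cadherin, the product of Cdh5, joins neighbouring endothelial cells at adherens junctions and is tied to actin through catenins. Tight junctions are built from claudins and occludin, and the junctional adhesion molecules beside them also guide leukocytes through the vessel wall. The scaffold protein ZO-1, encoded by Tjp1, binds claudins, occludin and junctional adhesion molecules inside the cell. Interleukin-33 is a nuclear cytokine of barrier cells, and the comparison of genotypes asks what its absence does to the transcripts of these cells.

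Start regions of Cldn5, F11r and Jam2 are shown because they lie before RefSeq starts of a claudin and of junctional adhesion molecules described below. The arrays measured transcripts and not these regions. RefSeq windows of build GRCr8 were found for 5 of the 9 genes. Those of Tjp1 and Ocln, whose starts lie 179658 and 1009 bases inside the gene, are not shown. The starts of the Cldn5 and F11r windows lie at the annotated gene start, and that of Jam2 lies 1273 bases inside the gene. Each window below holds the 250 bases before the start, 5′ to 3′ on the strand of the gene. Capitals mark CCAAT, the box bound by NF-Y, and GGAAG, an extended core bound by ETS factors, in either orientation.
Cldn5, chr11:95718599-95718848, minus strand: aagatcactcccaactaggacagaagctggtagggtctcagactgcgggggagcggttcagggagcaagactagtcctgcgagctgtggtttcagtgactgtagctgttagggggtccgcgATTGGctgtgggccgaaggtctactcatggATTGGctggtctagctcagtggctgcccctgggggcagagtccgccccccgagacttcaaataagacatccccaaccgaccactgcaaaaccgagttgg
F11r, chr13:86405979-86406228, plus strand: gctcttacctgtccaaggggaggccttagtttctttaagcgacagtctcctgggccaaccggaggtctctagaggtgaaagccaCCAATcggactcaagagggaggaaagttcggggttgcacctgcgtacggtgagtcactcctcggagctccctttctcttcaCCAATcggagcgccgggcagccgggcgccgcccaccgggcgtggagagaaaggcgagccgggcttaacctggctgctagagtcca
Jam2, chr11:37317310-37317559, plus strand: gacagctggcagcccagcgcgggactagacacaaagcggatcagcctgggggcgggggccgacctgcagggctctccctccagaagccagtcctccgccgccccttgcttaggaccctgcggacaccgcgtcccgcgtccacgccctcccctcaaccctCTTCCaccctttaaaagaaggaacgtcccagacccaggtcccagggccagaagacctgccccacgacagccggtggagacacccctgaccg
Cldn5 held CCAAT on the opposite strand 129 and 99 bases before the start, F11r held it on its own strand at 166 and 85 bases, and neither held GGAAG. The Jam2 window held 1 GGAAG, on the opposite strand at 91 bases, and no CCAAT. Neither motif overlaps the other here. Of the 5 windows found, 2 held CCAAT and 2, those of Jam2 and Ocln, held GGAAG. Of all 33469 RefSeq windows of this length, 34.02% held at least 1 CCAAT and 9.42% at least 2, and 63.3% held GGAAG. These matches describe letters and do not show binding.

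The deposited values were read as log2 expression, and every list of 3 values below runs in the order of knockout 28, 27 and 52 or of wildtype 34, 45 and 37, of which 52 and 37 are the males. The arrays had medians of 4.63 to 4.77 and maxima of 19.70 to 19.93. Il33 itself was 8.07, 8.37 and 9.82 in the knockouts and 13.86, 16.32 and 16.60 in the wildtypes, lower in every knockout than in any wildtype. It was the only gene called between genotypes (difference -6.84, SE 0.73, limma adjusted p = 0.0439), or 0.00864% of the 11577 genes tested, and that call was lost on leaving out any array other than wildtype 34. All 16 blood endothelial markers measured lay above every background probeset on all arrays. Other cells of skin were also represented: the median of the 6 keratinocyte markers was 7.39 to 9.98 in the knockouts and 6.97 to 12.75 in the wildtypes, highest in wildtype 34. Of these markers 5 of 6 were lower on average in the knockout, 4 were above background on all arrays and 1 on none. Without wildtype 34 the split was 3 higher and 3 lower, and the median difference moved from -1.41 to -0.037. The 8 spike-in controls gave means of 10.12 to 10.42 on arrays 28, 34 and 45 and of 8.82 to 9.33 on arrays 27, 52 and 37. The same arrays 28, 34 and 45 had the 3 highest keratinocyte medians.

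None of the 9 junction genes passed the test between knockout and wildtype. Their limma adjusted p, taken over all genes tested, was 0.999 for each. On average 7 of the 9 were higher in the knockout, where 54.0% of all genes tested were higher, and the median difference was 0.58 on the log2 scale against 0.033 over all genes. After a further quantile normalization 5 of the 9 were higher, since Cdh5 and F11r changed sign, and 6 to 8 were higher on leaving out 1 array. At an unadjusted p under 0.05 there were 2 of the 9, Jam3 and Tjp1, where 1.98% of all genes reached it. That count was 0 without knockout 28, wildtype 34 or knockout 52, where 238, 148 and 233 of all genes reached it. It was 1 without knockout 27 (Jam3, with 110 of all genes) and 1 without wildtype 45 (Cldn5, with 158). Without wildtype 37 it was 4, namely Esam, Jam3, Tjp1 and Ocln, the last lower in the knockout. In that setting 970 of 11568 genes reached it, against 229 of 11577 with all arrays. The count among the 9 was also 0 with keratinocyte or blood endothelial markers as a covariate and with the spike-in split as a block. In these settings 279, 297 and 320 of all genes reached it. The count was 2 with sex as a covariate (475 of all genes) and 3 with array weights (539 of all genes). The median standard error of a difference was 0.42 for these genes and 0.39 over all genes.

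**Figure D1:**
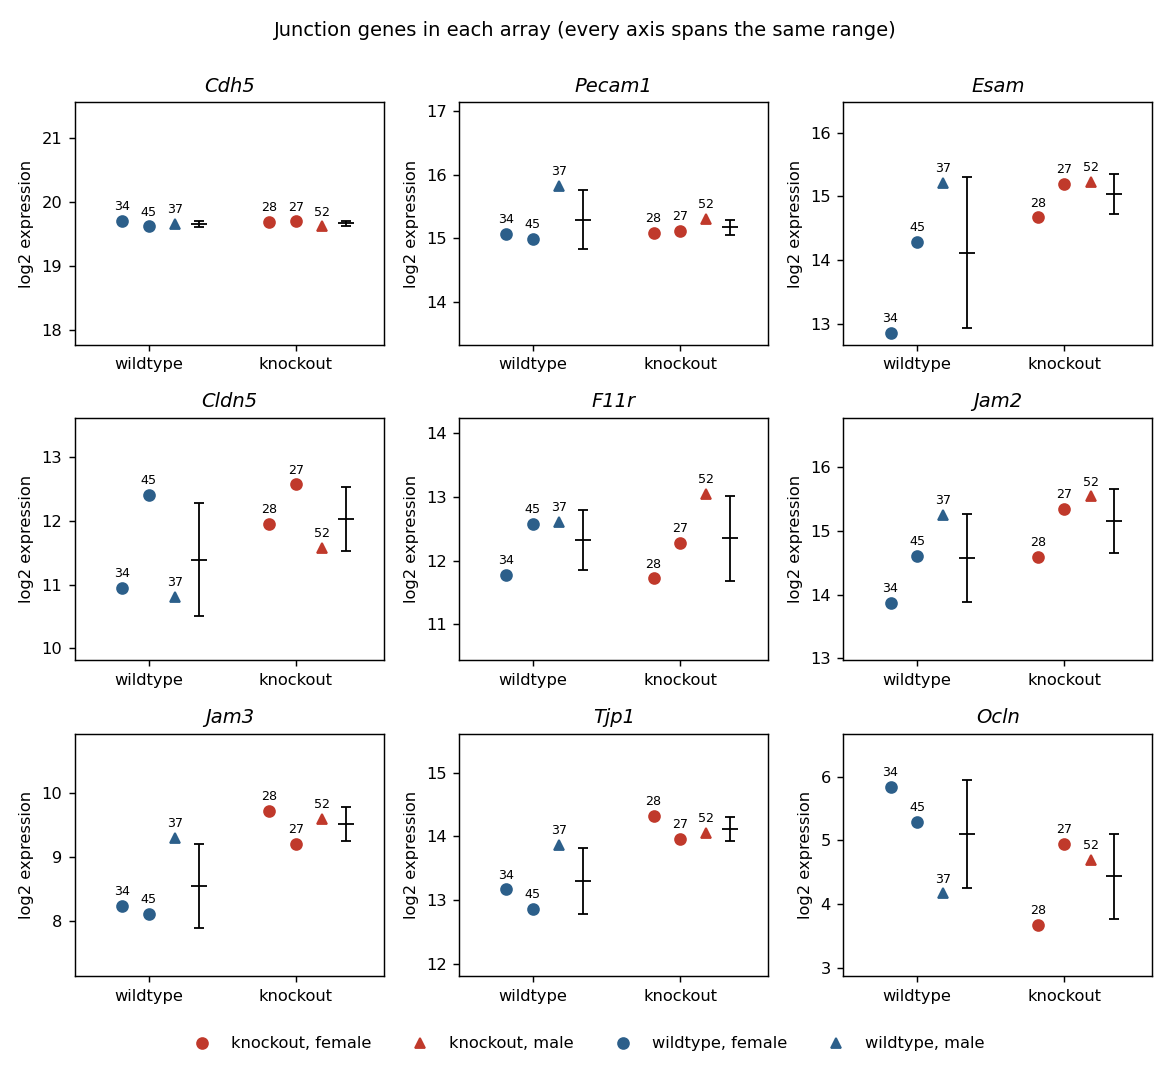
Each panel plots the log2 expression of 1 junction gene in the 6 arrays, labelled by animal number, with the mean and SD of each genotype (n = 3) as black bars. Every vertical axis spans the same range. Cdh5 differs by 0.09 over all arrays, and Tjp1 is the gene whose lowest knockout value (13.96) lies above the highest wildtype value (13.87).

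At the adherens junction, Cdh5 could not show a difference. The knockouts read 19.69, 19.70 and 19.62, the wildtypes 19.71, 19.62 and 19.66. All 6 values lay within 0.5 of the maximum of their array, at a distance of 0.05 to 0.31. The whole range of the gene was 0.09, and the difference of 0.0067 (95% interval -0.66 to 0.67) has an interval set mostly by the spread that limma borrows from other genes. A fall that stayed at the ceiling could not have been seen, so these values do not show whether Cdh5 changed.

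Pecam1, an adhesion molecule of the immunoglobulin superfamily at the lateral border, was the steadiest gene below the ceiling. Knockout values of 15.08, 15.12 and 15.31 stood against wildtype values of 15.07, 14.99 and 15.82. Wildtype 37 stood above the other 5 arrays, and the groups overlapped. The difference was -0.12 (95% interval -0.90 to 0.65, limma adjusted p = 0.999) and became 0.14 without wildtype 37.

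Among the junctional adhesion molecules, Esam, which is restricted largely to endothelium and platelets, varied most. Values of 14.67, 15.20 and 15.23 in knockouts compared with 12.86, 14.28 and 15.21 in wildtypes. The lowest were in wildtype 34 and 45, while the male wildtype 37 lay at the level of the knockouts. Means were 15.03 ± 0.32 and 14.12 ± 1.18 (SD, n = 3 each), a difference of 0.92 (95% interval -0.30 to 2.14, limma adjusted p = 0.999). Without wildtype 34 the difference was 0.29, and without wildtype 37 it was 1.46 (limma adjusted p = 0.504). All 5 platelet markers measured stayed at or below the highest background probeset on all arrays.

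Jam2, or JAM-B, which binds Jam3 across the junction, followed a similar course. The knockouts read 14.59, 15.35 and 15.54, the wildtypes 13.87, 14.61 and 15.25. Wildtype 34 was again lowest, and knockout 28 lay with wildtype 45. The difference was 0.58 (95% interval -0.39 to 1.56, limma adjusted p = 0.999) and was 0.23 without wildtype 34.

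Jam3, or JAM-C, a partner of Jam2 and of leukocyte integrins, had the largest difference of the 9 genes. Knockout values of 9.72, 9.21 and 9.60 stood against wildtype values of 8.23, 8.11 and 9.30. The female wildtypes lay below all other arrays, but wildtype 37 lay above knockout 27, so the groups overlapped. The means were 9.51 ± 0.27 and 8.55 ± 0.66 (SD, n = 3 each), a difference of 0.96 (SE 0.40, 95% interval 0.074 to 1.85, limma adjusted p = 0.999). It ranged from 0.75 without wildtype 45 to 1.34 without wildtype 37.

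F11r, or JAM-A, which is found in epithelium and platelets as well as endothelium, had nearly equal means. Values of 11.72, 12.28 and 13.04 in knockouts compared with 11.78, 12.57 and 12.61 in wildtypes. Each genotype spread over more than the difference between them, which was 0.027 (95% interval -0.92 to 0.98, limma adjusted p = 0.999). Its sign was not stable, at -0.32 without knockout 52 and 0.34 without knockout 28.

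The tight junction claudin of blood vessels, Cldn5, was higher on average in the knockout without passing the test. The knockouts read 11.95, 12.57 and 11.57, the wildtypes 10.95, 12.41 and 10.81. All knockouts lay above wildtype 34 and 37, and wildtype 45 lay among the highest values. The means were 12.03 ± 0.50 and 11.39 ± 0.89 (SD, n = 3 each), a difference of 0.64 (95% interval -0.44 to 1.72, limma adjusted p = 0.999). It was 0.42 without wildtype 34, 0.35 without wildtype 37, 0.37 without knockout 27 and 1.15 without wildtype 45, and was called in none of these.

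Ocln, the other membrane protein of tight junctions, was not clearly detected. Knockout values of 3.68, 4.94 and 4.70 stood against wildtype values of 5.84, 5.29 and 4.17. The highest of the 23 background probesets read 5.36 to 5.87 per array, and Ocln exceeded it on 1 array, wildtype 34. That array also had the highest keratinocyte median. Knockout 28, with the next highest, had the lowest Ocln, a value under its highest background probeset. The part of keratinocytes in Ocln was not tested. Its difference of -0.66 (95% interval -1.78 to 0.46, limma adjusted p = 0.999) lay in signal near background. It was -0.28 without knockout 28, -0.29 without wildtype 34 and -1.125 without wildtype 37.

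Tjp1 was the 1 junction gene whose groups did not overlap. Values of 14.32, 13.96 and 14.06 in knockouts compared with 13.17, 12.86 and 13.87 in wildtypes. The knockouts lay close together, and wildtype 37 came within 0.09 of the lowest of them. The means were 14.11 ± 0.19 and 13.30 ± 0.52 (SD, n = 3 each), a difference of 0.81 (SE 0.36, 95% interval 0.0059 to 1.62, limma adjusted p = 0.999). Among all genes tested 6.25% had groups apart, 3.36% with the knockout higher and 2.89% with it lower, so 1 of 9 is near that background. The difference was 0.59 without wildtype 45 and 1.10 without wildtype 37.

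**Figure D2:**
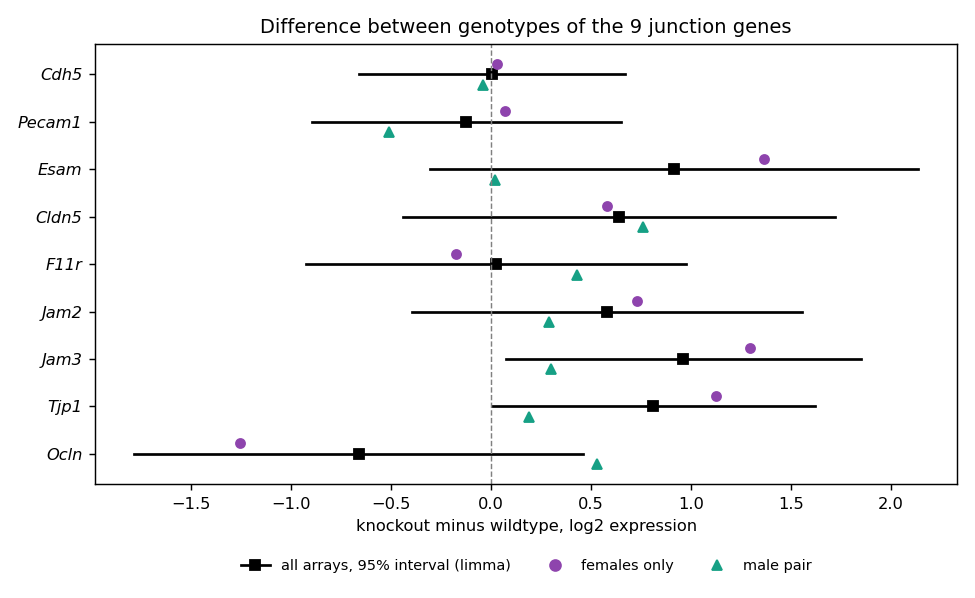
Squares and lines give the knockout minus wildtype difference in log2 expression of each junction gene with its 95% limma interval over 6 arrays; circles give the females alone (2 against 2) and triangles the male pair (1 against 1). The intervals of Jam3 and Tjp1 begin just above 0, and those of the other 7 genes span it.

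For 5 of the 9 genes the difference was larger in size among females than in the male pair, and 5 of the 9 had the same sign in both. Females differed by 1.30 for Jam3, 1.13 for Tjp1 and 1.37 for Esam, against 0.30, 0.19 and 0.020 between the males. For Cldn5 the values were 0.58 and 0.76. Ocln, near background, had opposite signs, at -1.255 and 0.53. With 1 male per genotype the interaction of genotype and sex rests on few arrays. It was not called for any of the 9 genes or of all genes tested (0%), with limma adjusted p of 0.999 for the 9. At an unadjusted p under 0.05 there were 0 of the 9 and 1.03% of all genes. Between sexes, with genotype in the model, 3 genes or 0.0259% were called and none was a junction gene. An unadjusted p under 0.05 was reached by 18.6% of all genes and by 0 of the 9. Both male arrays had a median of 4.63 and a maximum of 19.93. The female arrays had medians of 4.69 to 4.77 and maxima of 19.70 to 19.78. Sex and this difference between arrays cannot be told apart. The female minus male difference was -0.79 for Jam2 (SE 0.37, limma adjusted p = 0.295), -0.97 for Esam (SE 0.48, adjusted p = 0.314) and 0.78 for Cldn5 (SE 0.44, adjusted p = 0.368), none of which passed. With 1 array left out Esam ran from -1.64 (without knockout 52) to -0.295 (without wildtype 37), being -0.57 without wildtype 34, and Cldn5 was 0.45 without wildtype 45. After a further quantile normalization Esam was -0.54, Cldn5 1.20 and Jam2 -0.39.

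**Figure D3:**
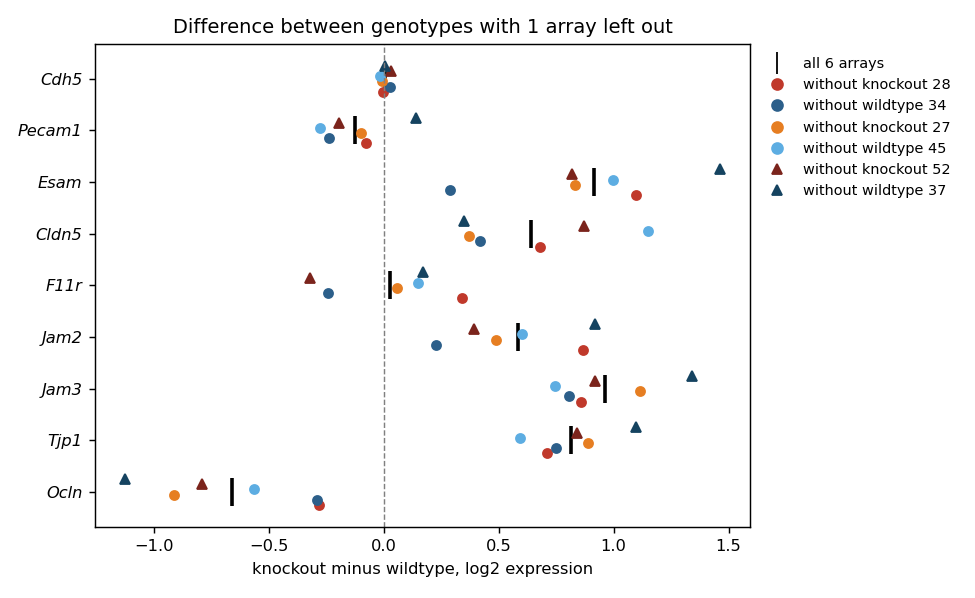
The knockout minus wildtype difference in log2 expression of each junction gene is plotted over all 6 arrays (black bars) and with each array left out (coloured points, triangles for male animals). Jam3 stays between 0.75 and 1.34 and Tjp1 between 0.59 and 1.10, whereas F11r runs from -0.32 to 0.34.

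The spike-in signal separated the arrays into the same 3 and 3 as the keratinocyte markers did, and the differences were unequal on its sides. Among the arrays of high spike-in signal (knockout 28 against wildtype 34 and 45) Jam3 differed by 1.55 and Tjp1 by 1.305. Among those of low signal (knockout 27 and 52 against wildtype 37) they differed by 0.105 and 0.14. Esam differed by 1.10 and 0.0050 and Cldn5 by 0.27 and 1.26. Ocln, near background, differed by -1.885 and 0.65. With the split as a block, the difference was 0.83 for Jam3 and 0.72 for Tjp1, neither called by limma. Both males lie on the low side, with 1 female, knockout 27. The part of this split in the differences was not tested.

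Esam and Jam2 were lowest where keratinocyte markers were highest. Over the 6 arrays Esam correlated with the keratinocyte median at Pearson's r = -0.963 (exact permutation p = 0.0125, 0.113 adjusted over 18 relations) and Spearman's rho = -0.886 (exact permutation p = 0.0333, adjusted 0.15). Jam2 did so at r = -0.976 (exact permutation p = 0.0125, adjusted 0.113) and rho = -0.829 (exact p = 0.0583, adjusted 0.15). Without wildtype 34 and 37, the arrays farthest from the median, r was -0.901 for Esam and -0.988 for Jam2. None of the 18 relations, of the 9 genes with keratinocyte and with blood endothelial markers, passed after adjustment. The spike-in split leaves 3 arrays on each side, too few for a correlation within it. Taking the keratinocyte median as a covariate moved the difference between genotypes from 0.92 to 0.36 for Esam and from 0.58 to 0.19 for Jam2. The blood endothelial median gave 0.55 and 0.33, and the spike-in split as a block 0.55 and 0.27. Esam and Jam2 correlated with the blood endothelial median at r = 0.814 and 0.822 (exact permutation p = 0.0292 and 0.0514, adjusted 0.131 and 0.185). With the mean of the same markers r fell to 0.394 and 0.386 (exact permutation p = 0.449 and 0.429), so these relations depend on the summary used. In RNA of a whole sample, fewer cells of a type and less RNA per cell cannot be told apart.

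Jam3 and Tjp1 kept another order of the arrays. Their r with the keratinocyte median was -0.611 and -0.521 (exact permutation p = 0.218 and 0.296), and knockout 28 had high keratinocyte markers and the highest Jam3 and Tjp1 of all. With that median as a covariate their differences were 0.78 and 0.71. With the blood endothelial median as a covariate they were 0.74 and 0.67. Jam3 and Tjp1 correlated with the blood endothelial median at r = 0.755 and 0.648 (exact permutation p = 0.108 and 0.154). With the mean of those markers r was 0.860 and 0.843 (exact permutation p = 0.0236 and 0.0333, adjusted 0.142 and 0.15). The pair ran alike over the 6 arrays, at r = 0.984 (exact permutation p = 0.00278, the smallest that permutations of 6 arrays can give, and 0.1 adjusted over the 36 pairs) and rho = 0.943 (exact p = 0.0167, adjusted 0.3). Without wildtype 34 and 45 their r was 0.872. Esam and Jam2 were the pair of next smallest p, with r = 0.948 (exact permutation p = 0.0111, adjusted 0.2) and rho = 0.886 (exact p = 0.0333, adjusted 0.3), and r = 0.966 without wildtype 34 and 45. No pair passed after adjustment.

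Markers of pericytes and smooth muscle, the mural cells that wrap small vessels, were also higher in the knockout for 9 of 11 genes, at a median difference of 0.30, and 8 of the 11 lay above background on all arrays. Their median was 8.53, 10.19 and 9.73 in the knockouts and 8.36, 8.46 and 9.87 in the wildtypes. Pdgfrb, the platelet-derived growth factor receptor of pericytes, was 13.05, 13.62 and 13.15 against 11.90, 11.44 and 13.10, low in the same female wildtypes as Jam3 and Tjp1. Its difference of 1.13 (SE 0.45, limma adjusted p = 0.999) was not called. The list median was 0.097 without wildtype 45, 0.71 without wildtype 34, 0.76 without knockout 28 and 1.12 without wildtype 37. Fibroblast markers were lower for 8 of 10 genes (median -0.58) and leukocyte markers for 9 of 10 (-0.47), but without wildtype 34 their medians were 0.056 (6 higher, 4 lower) and 0.16 (4 higher, 4 lower). Lymphatic markers were higher for 5 of 6 (0.68), and without wildtype 37 for 3 of 6 (-0.27). The blood endothelial markers were higher for 12 of 16 (0.28), with medians of 0.13 without knockout 28 and 0.135 without wildtype 45. Platelet, Schwann cell and melanocyte, skeletal muscle and adipocyte markers were above background on no array. The part of these cells in the junction genes was not tested.

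**Figure D4:**
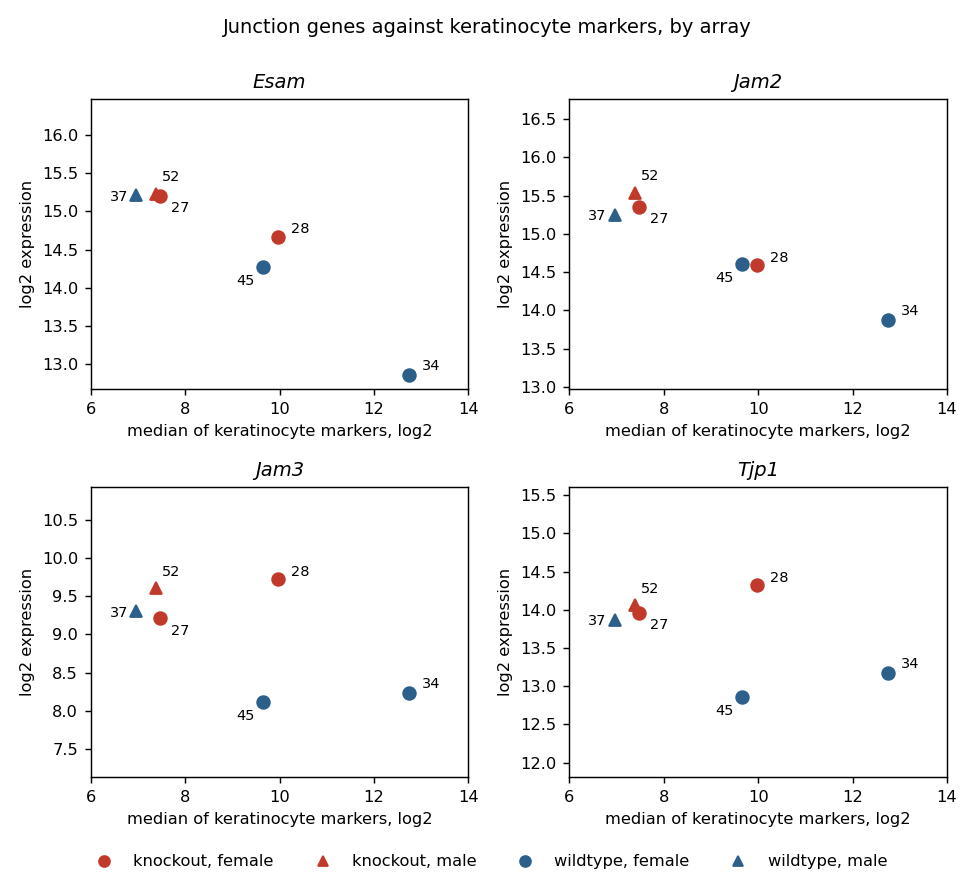
The log2 expression of 4 junction genes is plotted against the median log2 expression of 6 keratinocyte markers in each array, labelled by animal number. Esam and Jam2 fall from left to right across both genotypes, while for Jam3 and Tjp1 knockout 28 lies well above wildtype 45 at a similar keratinocyte level (9.98 and 9.66).

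The partners of these proteins also held no gene that passed the test. Of the 9 adherens junction partners tested, 7 were higher and 2 lower in the knockout, with a median difference of 0.12 (0.022 after a further quantile normalization, 0.23 without knockout 28 or 27, 0.20 without knockout 52, 0.36 without wildtype 37 and -0.12 without wildtype 45). The 3 of smallest p were the receptor phosphatase Ptprm (10.03 ± 0.10 against 9.38 ± 0.79, SD, n = 3 each), the p120 catenin Ctnnd1 (12.86 ± 0.60 against 13.30 ± 0.24) and T-cadherin, Cdh13 (14.86 ± 0.24 against 14.42 ± 1.01). Of 17 tight junction plaque and tricellular genes 11 were higher and 6 lower, at a median of 0.15. That median was 0.012 without knockout 52, 0.028 without wildtype 34 and 0.042 without wildtype 37. The PDZ scaffold Mpdz was 7.02 ± 0.44 against 6.41 ± 0.30 and Pals1, of the Crumbs polarity complex, 7.90 ± 0.10 against 7.45 ± 0.45 (SD, n = 3 each). These 2 of the 17 had groups apart with the knockout higher, as 3.36% of all genes did, and Pals1 is named for that, after its values were seen. The tricellular genes Ildr1 and Marveld2 differed by 0.58 and -0.50 near background.

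Claudins other than Cldn5 gave little signal. Of 21 measured, 17 exceeded the highest background probeset on no array, none did so on all, and the 13 tested had a median difference of -0.0067, with 6 higher and 7 lower, and -0.11 to 0.075 with 1 array left out. The epidermal claudin Cldn1 was 7.40, 5.56 and 5.18 in the knockouts and 9.25, 7.32 and 5.45 in the wildtypes. Those values follow the keratinocyte medians in being highest in wildtype 34. Cldn3 and Cldn4 differed by -0.88 and -0.55. Of 10 epithelial cadherin and desmosome genes 3 were higher and 7 lower in the knockout, at a median of -0.38, which was -0.19 without wildtype 34 and -0.79 without wildtype 37. E-cadherin, Cdh1, was 8.28 ± 1.02 against 9.53 ± 1.83, Perp, of desmosomes, 10.09 ± 1.29 against 12.11 ± 3.01, and Evpl 5.60 ± 0.053 against 6.11 ± 0.52.

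Genes that steady endothelial junctions through the small GTPase Rap1 and the CCM complex were higher for 10 of 11 members, at a median of 0.34. They were higher for 9 of 11 after a further quantile normalization, and the median was 0.17 without wildtype 45. Of all genes tested 54.0% were higher, and 12 of 16 blood endothelial markers were, at a median of 0.28. The angiopoietin receptor Tek, picked after its values were seen, had groups apart (14.62 ± 0.030 against 14.28 ± 0.27, SD, n = 3 each). Groups were apart with the knockout higher for 3.36% of all genes. None of the 11 was called, nor had any an unadjusted limma p under 0.05. The smallest p values were those of Krit1, a CCM protein (7.86 ± 0.23 against 7.36 ± 0.53), the Rap1 exchange factor Rapgef2 (10.70 ± 0.77 against 10.04 ± 0.74) and the sphingosine phosphate receptor S1pr1 (8.96 ± 0.10 against 8.54 ± 0.53). Of 12 nectins, relatives of the CTX family and transmigration molecules, 5 were higher and 7 lower, at a median of -0.16 (-0.33 without knockout 52 and 0.078 without wildtype 34). Here Mcam differed by 0.82, the nectin-like Pvr by 0.89 and the leukocyte ligand Icam1 by 1.16. All 3 had lower values in wildtype 34 and 45 than in any other array.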

How the data were processed

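RNA of the sorted cells was put on Affymetrix arrays after biotin labelling, as the labels' protocols state. Per the submitters' processing notes, the authors ran RMA (Expression Console) and deposited its log2 values. No version, probeset library or build was found in the sources used here. Their log base was read from RMA and from their range of 1.60 to 19.93, so the unit of each difference rests on that reading. The deposited distributions still differed between arrays, with medians of 4.63 to 4.77 and maxima of 19.70 to 19.93. The deposited values were used with no further scaling. Of 24834 probesets 1646 are controls, and 15049 have 1 gene symbol, 0 several and 8139 none in the platform annotation given. Where a symbol had several probesets (10 symbols), the brightest on average stood for it. The dim filter removed genes averaging less than 3.51, the 25th percentile. Background is the 23 BkGr control probesets. Genotypes were tested with lmFit and eBayes of limma 3.58.1 under R 4.3.3, two-sided, with Benjamini-Hochberg adjustment at 0.05; the number of arrays limits the precision. Sex, the interaction, exact permutation correlations and the alternatives of the closing section were added. From each partner list the 3 genes of smallest p are named, and from each member the 2 genes of highest r. Scripts were tested on simulated data. The members, lists and tests were chosen with earlier results of these data known. Each array is 1 animal.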

Additional observations from a re-analysis of the deposited data

How the results depend on the processing

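None of the 9 junction genes was called by limma in any of the 17 alternatives, which were other filters, scalings, covariates, blocks, variance models and weights and each array left out, and their lowest adjusted p was 0.504. Esam, Cldn5, Jam2, Jam3, Tjp1 and Ocln kept their direction in all 17. Cdh5 became -0.028 and F11r -0.11 after a further quantile normalization. F11r was also -0.27 with the keratinocyte median, -0.18 with the blood endothelial median and -0.20 with the spike-in split. With 1 array left out Cdh5 ran from -0.015 to 0.032, F11r from -0.32 to 0.34 and Pecam1 from -0.28 to 0.14. Between sexes Tjp1 became 0.0060 after quantile normalization and Cdh5 -0.055 after centring on array medians; with 1 array left out Tjp1 ran from -0.86 to 0.080 and Ocln from -0.39 to 1.40. With the mean of the blood endothelial markers in place of their median, r for Cdh5 was 0.030. The cause of these changes was not tested. The limma count of genes called was 1 and became 0 without the filter on dim genes (335 at an unadjusted p under 0.05) and with a filter at the 50th percentile (141), where Il33 differed by -6.84 at adjusted p of 0.0854 and 0.0539. With 1 array left out the count was 0 to 1 and Il33 differed by -7.71 to -6.34. No paired analysis was made because the labels give no pairing of the animals. Signal at the ceiling limits Cdh5 and signal at background limits Ocln.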

Other observations

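The genes whose values ran most like those of a junction gene over the 6 arrays were listed among 11551 genes, as a description. With 6 arrays many genes reach a high Pearson's r: 57 genes exceeded 0.9 for Cldn5 and 457 for Jam2. Jam3 ran with Tdrd3 (r = 0.995) and Pigc (0.992), and Tjp1 with Pigc (0.995) and Stat3 (0.988), a transcription factor downstream of Il6 family receptors. Stat3 was 14.47 in the knockout and 13.72 in the wildtype on average, and did not pass the test. Esam ran with Rlig1 (0.997) and Uxs1 (0.994), and Jam2 with Uap1 (0.995) and Smim23 (0.995). F11r ran with Slc36a1 (0.997) and Ltbp4 (0.996), and Cldn5 with Ago3 (0.982) and Qdpr (0.979). Pecam1 and Ocln had their closest matches in Bpifa2f (0.994), C5h1orf50 (0.987), Or8g52 (0.985) and Acbd6 (0.982). Pigc, Smim23, Qdpr, Bpifa2f, C5h1orf50 and Or8g52 averaged 3.53 to 5.24 per genotype, below the 5.36 to 5.87 of the highest background probesets.

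The genes of the depleting antibodies were low but not at background on every array. Ptprc, which encodes CD45, read 5.28, 5.80 and 4.59 in the knockouts and 7.72, 5.54 and 3.99 in the wildtypes. Lyve1 read 6.07, 8.22 and 7.27 in the knockouts and 5.86, 7.62 and 5.04 in the wildtypes. The junction proteins are also made by lymphatic endothelium, and the lymphatic marker median ran from 7.12 to 8.56 in the knockouts and 5.24 to 8.29 in the wildtypes. The part of these cells in the values was not tested.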
